A study of Mus musculus with 30 samples.

Results

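In wild type mouse bone marrow derived macrophages, the combined stimulus of interleukin-4 (IL-4) and prostaglandin E2 (PGE2) was compared with no stimulus. The comparison rests on 6 of the 30 libraries of the series, which were chosen by their labels: 3 libraries labelled wild type with IL-4 and PGE2, and 3 labelled wild type with no stimulus. All cells were of the C57BL/6 strain. They had been grown from bone marrow for 7 days with CSF-1 at 20 ng/mL, the growth factor that turns marrow progenitors into macrophages, and CSF-1 was present during stimulation too. The stimulated cells were given IL-4 at 20 ng/mL with PGE2 at 10 µM, and the unstimulated cells were given neither. For reference, values are also given from the 3 wild type libraries with IL-4 alone at the same dose. A second set of values comes from cells transduced by lentivirus with a control short hairpin RNA (shRNA), 3 libraries with IL-4 plus PGE2 and 3 unstimulated. The labels give no stimulation time. They name no mouse or culture for a replicate either, and the p-values therefore cover just the spread among these libraries, part or all of which may be technical.

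IL-4 is a cytokine of type 2 immunity. It signals through its receptor and the kinases JAK1 and JAK3 to the transcription factor STAT6, and drives the state of macrophages known as alternative activation, which is linked to repair and to the defence against worms. PGE2 is a lipid mediator whose receptors EP2 and EP4 raise cyclic AMP, which activates protein kinase A and factors of the CREB family. The comparison therefore asks for the net change when both inputs act together, against cells with neither.

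Messenger RNA was sequenced and counted per gene. Library totals were 10523471 to 13150631 counts with IL-4 plus PGE2 and 10514496 to 13414293 counts without stimulus. Genes of the mitochondrial genome took 1.41% to 1.44% of the counts with IL-4 plus PGE2 and 1.41% to 1.5% in unstimulated libraries. Levels are given as counts per 1000000 counts of a library (CPM), as single libraries in the order of their replicate numbers or as mean ± SD of 3 libraries a group. They compare a gene between libraries and not 1 gene with another. Fold changes are log2 values of IL-4 plus PGE2 over unstimulated with their standard error (SE, after ±) from edgeR's quasi-likelihood test, and a gene counted as called where its Benjamini-Hochberg adjusted p was under 0.05. Intervals and floors cover counting error only.

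Of 12824 genes tested, 3858 (30.1%) were higher with IL-4 plus PGE2 and 3670 (28.6%) were lower. Most of these changes were small, since 5724 of the 7528 called genes (76.0%) were under 2-fold. At 2-fold or more, 1015 genes (7.91%) were higher and 789 (6.15%) were lower. The far tail was one-sided in number: 209 genes rose by 8-fold or more and 31 fell by as much. The 3 values of each group did not overlap for 4328 genes (33.7%) in the higher direction and 4148 (32.3%) in the lower one. The median log2 change of all tested genes was 0.00.

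The largest rises were in genes with low or no expression in unstimulated cells. Arg1 (ENSMUSG00000019987, GRCm38 chr10:24915221-24927484), the arginase that splits arginine into ornithine and urea, had 4400, 4440 and 4770 CPM with IL-4 plus PGE2, against 2.81, 2.98 and 2.27 CPM unstimulated. All stimulated libraries lay far above the unstimulated ones, a log2 change of 10.73 ± 0.10 (SE, n = 3 each; edgeR adjusted p = 6.05e-28). Msx3 (ENSMUSG00000025469, chr7:140046157-140049089), a homeobox transcription factor gene, had 165, 153 and 181 CPM with IL-4 plus PGE2, against 3 counts in all over the unstimulated libraries. The ratio of its counts was 1920, with an exact binomial 95% interval of 657 to 9310. Pgf, which encodes the VEGF-family ligand placental growth factor, had 13.9, 12.4 and 14 CPM with IL-4 plus PGE2 and no count in any unstimulated library. It was at least 156-fold higher, taking a floor of 3 counts over the unstimulated group. Susd4, a complement regulator, was likewise at least 89.6-fold higher, with 8.9, 6.69 and 7.39 CPM against none.

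The rest of the 12 largest rises included signalling and surface genes. Rasgrp1, an exchange factor that loads Ras with GTP, had 116, 123 and 100 CPM with IL-4 plus PGE2, against 0.426, 0.279 and 0.147 CPM unstimulated (log2 8.63 ± 0.18, edgeR adjusted p = 1.24e-19). Ramp3, a partner protein of calcitonin-family receptors, had 30.8, 26.6 and 31 CPM, against 0, 0.279 and 0.147 CPM unstimulated (log2 7.63 ± 0.25, edgeR adjusted p = 4.3e-18). A lack of overlap between the groups was a condition for the genes of this list. Dnase1l3, a secreted DNA-degrading enzyme, averaged 16.9 ± 1.52 CPM with IL-4 plus PGE2 and had 1 count over the unstimulated group, a count ratio of 585 (exact binomial 95% interval 105 to 23200). Il31ra, a subunit of the IL-31 receptor, averaged 28 ± 2.2 CPM with IL-4 plus PGE2 and had 3 counts in unstimulated cells, a ratio of 323 (110 to 1570). Pdcd1lg2, Mgl2, Cish and Retnla completed the list and are described with their pathways.

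**Figure D1:**
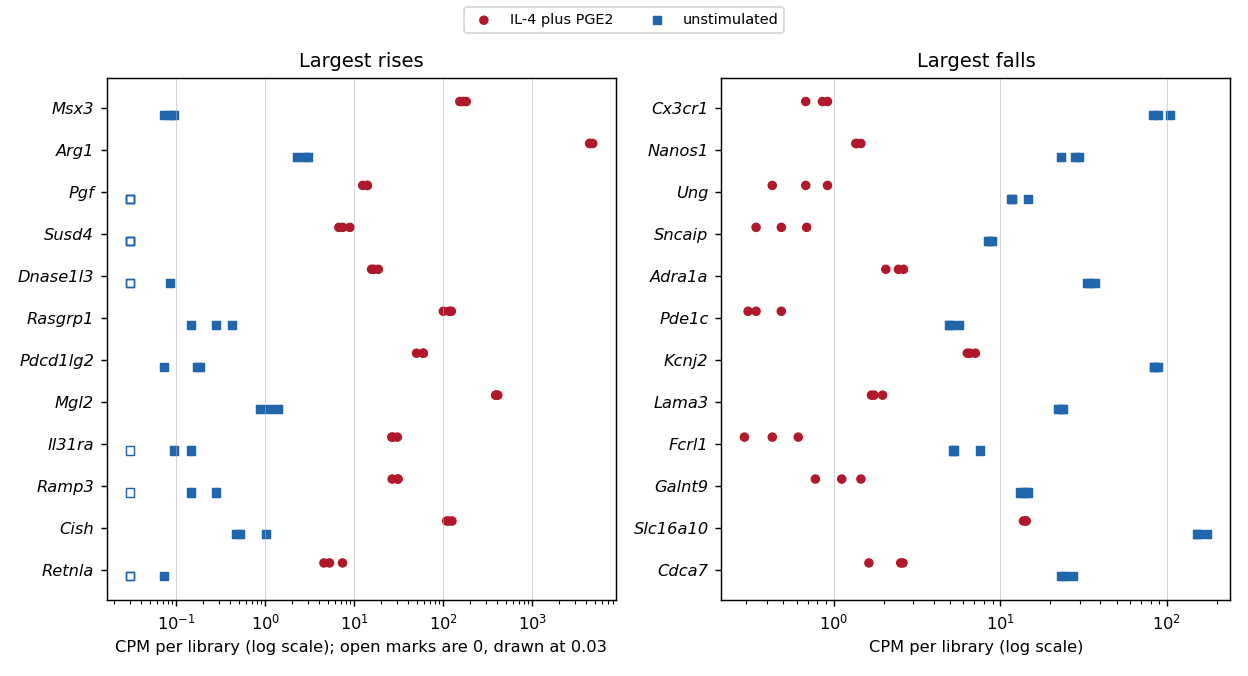
CPM in each of 3 libraries per group (log axis) for the 12 genes with the largest rises (left) and the 12 with the largest falls (right), with IL-4 plus PGE2 as circles above unstimulated as squares. The groups are apart for every gene because a lack of overlap was a condition for choosing them. Arg1, for instance, had 4400 to 4770 CPM against 2.27 to 2.98 CPM unstimulated, and Retnla 4.55 to 7.36 CPM against 0 to 0.0733 CPM.

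The largest fall was in Cx3cr1 (ENSMUSG00000052336, chr9:119901616-120069879), the receptor for the chemokine fractalkine. It had 0.92, 0.858 and 0.681 CPM with IL-4 plus PGE2, against 82.8, 88.9 and 105 CPM unstimulated, and the log2 change was -6.78 ± 0.16 (SE, n = 3 each; edgeR adjusted p = 1.35e-19). The next falls were smaller. Nanos1, an RNA-binding translational repressor, had 1.38, 1.46 and 1.36 CPM, against 23.3, 28 and 29.9 CPM unstimulated (log2 -4.27 ± 0.16, edgeR adjusted p = 5.5e-17). Ung, the glycosylase that removes uracil from DNA, had 0.92, 0.429 and 0.681 CPM, against 11.8, 11.7 and 14.7 CPM unstimulated (log2 -4.21 ± 0.27, edgeR adjusted p = 2.09e-11). A lack of overlap between the groups was a condition for naming these falls too. Channel, transporter and receptor genes followed: Kcnj2, an inward rectifier potassium channel, at log2 -3.68, Slc16a10, a transporter of aromatic amino acids, at -3.50, and Adra1a, an adrenergic receptor, at -3.88. Sncaip, Pde1c, Lama3, Fcrl1, Galnt9 and Cdca7 made up the rest, with log2 changes between -4.05 and -3.47.

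Most genes of alternative activation rose. Of 34 tested members of this list, 27 (79.4%) were higher and 1 (2.94%) was lower, where 30.1% and 28.6% of all genes were. By 2-fold or more, 24 were higher, where 7.91% of all genes were, and the median log2 change was 1.69 against 0.00 for all genes. Mrc1, the mannose receptor, had 10200, 10000 and 9160 CPM with IL-4 plus PGE2, against 731, 739 and 766 CPM unstimulated (log2 3.72 ± 0.07, edgeR adjusted p = 1.03e-22). Tgm2, the protein cross-linking transglutaminase 2, had 5150, 5070 and 5470 CPM, against 407, 422 and 451 CPM unstimulated (log2 3.61 ± 0.06, edgeR adjusted p = 6.65e-24). Both were far above their unstimulated range. With IL-4 alone, Mrc1 averaged 5220 CPM and Tgm2 606 CPM. The lectin genes Mgl2 (395 ± 11.8 against 1.13 ± 0.259 CPM unstimulated, log2 8.46 ± 0.09) and Clec10a (404 ± 36.4 against 8.37 ± 0.462 CPM unstimulated, log2 5.59 ± 0.10) rose as well. These are close relatives whose reads the counting could have split. Chil3, the chitinase-like protein Ym1, had 269, 283 and 257 CPM, against 43.7, 45.9 and 48.3 CPM unstimulated (log2 2.55 ± 0.06, edgeR adjusted p = 7.51e-21), with the same reservation toward its relative Chil4. Pparg, the nuclear receptor that IL-4 uses in lipid handling, was the member that fell, at 23.3 ± 1.13 against 51 ± 1.15 CPM unstimulated (log2 -1.13 ± 0.07). It averaged 82.8 CPM with IL-4 alone. In control shRNA cells its change did not pass the test (log2 -0.39, edgeR adjusted p = 0.156). Il1rn, Itgax, Atp6v0d2, Dcstamp, Ch25h and Ear11 did not pass the test.

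Retnla, which encodes the secreted protein RELM-alpha, was called higher but stayed low. It had 7.36, 4.55 and 5.25 CPM with IL-4 plus PGE2, and 1 count over the unstimulated libraries, a count ratio of 202 (exact binomial 95% interval 35.9 to 8020). In cells with IL-4 alone it averaged 55.8 CPM, so its level with both agents lay between those of the other 2 groups. Arg1 stood the other way round, with 4540 CPM with IL-4 plus PGE2, 1080 CPM with IL-4 alone and 2.69 CPM unstimulated.

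The STAT6 motif was looked for in the RefSeq promoter windows (GRCm38.p6, 250 bases before to 50 bases after a gene's start), which matched 9489 of the tested genes. Its letters are TTCNNNNGAA, read on both strands. Of the genes at least 2-fold higher with a window, 65 of 761 (8.54%) held it, as did 50 of 567 (8.82%) of those at least 2-fold lower, 634 of 9489 (6.68%) of all tested genes and 6.95% of all 32851 windows. A gene was counted where any of its windows held the motif, while the share of all windows counts each window. This holds for the motifs further on too, and the 2 kinds of share are not like measures. The STAT6 motif overlapped the interferon motif described further on in 18 windows of the table and the E2F motif in 3. The windows of the 3 genes with the largest rise among those with a match are shown, since 2 of them, Pdcd1lg2 and Retnla, belong to the 12 largest rises, and Vdr, the vitamin D receptor, rose to 96.3 ± 7.31 CPM against 1.45 ± 0.233 CPM unstimulated. Capitals mark the motif, and each window reads 5′ to 3′ on the gene's strand.
Pdcd1lg2, chr19:29410669-29410968, plus strand: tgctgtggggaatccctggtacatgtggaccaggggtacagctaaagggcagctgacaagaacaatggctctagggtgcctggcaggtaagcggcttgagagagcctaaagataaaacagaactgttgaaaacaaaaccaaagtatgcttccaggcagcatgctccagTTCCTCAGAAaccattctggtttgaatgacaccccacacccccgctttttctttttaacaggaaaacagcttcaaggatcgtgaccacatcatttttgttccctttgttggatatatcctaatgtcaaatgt
Retnla, chr16:48842359-48842658, plus strand: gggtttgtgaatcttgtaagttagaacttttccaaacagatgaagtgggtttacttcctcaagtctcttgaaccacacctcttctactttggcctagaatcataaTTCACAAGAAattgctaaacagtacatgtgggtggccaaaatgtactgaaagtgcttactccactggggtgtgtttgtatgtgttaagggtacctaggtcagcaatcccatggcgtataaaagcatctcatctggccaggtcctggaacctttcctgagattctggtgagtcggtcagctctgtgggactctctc
Vdr, chr15:97908247-97908546, minus strand: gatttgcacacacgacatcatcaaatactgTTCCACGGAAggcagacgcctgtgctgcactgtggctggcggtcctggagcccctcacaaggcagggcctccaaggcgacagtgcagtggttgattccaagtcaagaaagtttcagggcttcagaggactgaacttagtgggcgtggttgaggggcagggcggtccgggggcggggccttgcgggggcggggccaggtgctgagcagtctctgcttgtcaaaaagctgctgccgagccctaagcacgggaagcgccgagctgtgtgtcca
Counted from the start, the motif began 82 bases before it in Pdcd1lg2, 145 in Retnla and 220 in Vdr. A match in these letters is a description of the sequence and not a measured binding site.

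Along the IL-4 receptor chain, 12 of 22 tested genes (54.5%) were higher and 5 (22.7%) lower, beside 30.1% and 28.6% of all genes, with a median log2 change of 0.27. Il4ra, the receptor's binding subunit, had 1210, 1090 and 1120 CPM with IL-4 plus PGE2, against 130, 141 and 142 CPM unstimulated (log2 3.05 ± 0.05, edgeR adjusted p = 2.02e-23). The kinase gene Jak2 rose too, with 325, 351 and 359 CPM, against 41.8, 41.3 and 37.1 CPM unstimulated (log2 3.11 ± 0.06, edgeR adjusted p = 1.03e-22). The partner subunit Il2rg (34.1 ± 1.64 against 33 ± 2.12 CPM unstimulated) did not pass the test, and Il13ra1, the subunit of the alternative receptor shared with IL-13, fell to 3.21 ± 0.818 against 13.4 ± 1.62 CPM unstimulated (log2 -2.06 ± 0.19). Stat6 itself was lower, at 277 ± 7.58 against 348 ± 9.46 CPM unstimulated (log2 -0.33 ± 0.04). The feedback inhibitor genes Socs1, Cish and Socs2 rose more than Il4ra and Jak2, and their relative Socs3 rose by log2 2.77 ± 0.19. Socs1 had 124, 99.7 and 110 CPM, against 1.02, 0.931 and 0.953 CPM unstimulated (log2 6.83 ± 0.13), Cish had 125, 115 and 109 CPM, against 1.02, 0.465 and 0.513 CPM unstimulated (log2 7.43 ± 0.13), and Socs2 averaged 92 ± 8.96 against 0.689 ± 0.0414 CPM unstimulated (log2 7.03 ± 0.20). The phosphatases split, with Ptpn2 higher (log2 1.41 ± 0.07) and Ptpn1 and Ptpn6 lower (log2 -0.93 and -0.63).

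In arginine and polyamine metabolism, 9 of 20 tested genes (45.0%) were higher and 5 (25.0%) lower, the lower share being near that of all genes (30.1% higher and 28.6% lower). Slc7a2, the cationic amino acid transporter, was at 825 ± 123 against 20.4 ± 1.84 CPM unstimulated (log2 5.34 ± 0.17), Arg2 at 3.84 ± 1.16 against 0.306 ± 0.197 CPM unstimulated (log2 3.59 ± 0.38), and Odc1, which makes putrescine from ornithine, at 333, 323 and 407 CPM, against 84.3, 87.5 and 89.7 CPM unstimulated (log2 2.02 ± 0.07, edgeR adjusted p = 1.93e-14). The enzymes that extend putrescine fell: Sms, spermine synthase, to 22.5 ± 1.65 CPM against 56.9 ± 3.35 CPM unstimulated (log2 -1.34 ± 0.07), Srm, spermidine synthase, to 23.6 ± 3.09 against 37.8 ± 3.14 CPM unstimulated, and Amd1, which supplies their aminopropyl donor, to 18.1 CPM against 33 CPM unstimulated. Smox, which oxidizes spermine back to spermidine, rose to 130 ± 9.43 CPM, against 55.3 ± 3.35 CPM unstimulated (log2 1.23 ± 0.06). Nos2, the inducible nitric oxide synthase that competes for arginine, had too few counts to be tested.

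Genes known to respond to cyclic AMP moved in nearly every case. All 29 tested members of that list were called, 25 (86.2%) higher and 4 (13.8%) lower, where 30.1% and 28.6% of all genes were, with a median log2 change of 1.13. Crem (ENSMUSG00000063889), whose ICER products repress cyclic AMP responses, had 291, 318 and 326 CPM with IL-4 plus PGE2, against 9.45, 11.1 and 11.3 CPM unstimulated (log2 4.87 ± 0.09, edgeR adjusted p = 4.8e-22). Thbs1, the matrix glycoprotein thrombospondin 1, had 3800, 3920 and 4380 CPM, against 47.2, 53.6 and 54.3 CPM unstimulated (log2 6.28 ± 0.16, edgeR adjusted p = 2.19e-10). The groups were far apart for both. Fosl2, an AP-1 subunit, rose to 583 ± 9.02 against 55.5 ± 2.5 CPM unstimulated (log2 3.39 ± 0.06). Fosl2 averaged 281 CPM with IL-4 alone, where Crem averaged 12 CPM and Thbs1 13 CPM. The orphan nuclear receptor genes Nr4a1, Nr4a2 and Nr4a3 rose by log2 1.56 ± 0.15, 2.83 and 2.14. The 4 members that fell were Atf3 (183 ± 2.74 against 477 ± 30.3 CPM unstimulated, log2 -1.38 ± 0.05), Rgs2 (89.4 ± 11.4 against 203 ± 13 CPM unstimulated, log2 -1.19 ± 0.10), Sgk1 (log2 -0.58 ± 0.06) and Fos (101 ± 6.96 against 121 ± 9.82 CPM unstimulated, log2 -0.26 ± 0.10). The full cyclic AMP response element, letters TGACGTCA, stood in the promoter window of 3 of 23 members of this list with a window, 17 of 761 genes at least 2-fold higher (2.23%), 18 of 567 at least 2-fold lower (3.17%), 347 of 9489 tested genes (3.66%) and 1.79% of all windows. It overlapped none of the other motifs.

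Among receptors and enzymes that make or read cyclic AMP, 14 of 29 tested genes (48.3%) were higher and 6 (20.7%) lower, beside 30.1% and 28.6% of all genes. By 2-fold or more, 3 were higher and 1 lower, and the median log2 change was 0.13. The EP2 receptor gene Ptger2 was at 16.8 ± 1.88 against 12.3 ± 1.39 CPM unstimulated (log2 0.45 ± 0.17) and the EP4 receptor gene Ptger4 at 13.7 ± 2.14 against 17.5 ± 0.877 CPM unstimulated (log2 -0.34 ± 0.10). Adora2b, a Gs-coupled adenosine receptor, was the exception in size, with 115, 125 and 119 CPM, against 4.09, 4.37 and 4.55 CPM unstimulated (log2 4.78 ± 0.09, edgeR adjusted p = 4.91e-23). The CREB coactivator gene Crtc3 rose to 67 ± 1.58 CPM against 23.5 ± 2.16 CPM unstimulated (log2 1.52 ± 0.07), adenylate cyclase Adcy3 rose by log2 1.19 ± 0.12, and Rapgef3, the cyclic AMP sensor EPAC1, fell by 1.99 on the log2 scale. Of the protein kinase A subunit genes, Prkaca, Prkar1a and Prkar1b were higher (log2 0.31, 0.64 and 0.80) and Prkacb and Prkar2a lower (log2 -0.18 and -0.47), while Prkar2b at log2 -0.09 did not pass the test. Phosphodiesterases, which break cyclic nucleotides down, were higher in 8 (57.1%) and lower in 4 (28.6%) of 14 tested genes (median log2 1.02). Their lower share was that of all genes, of which 30.1% were higher and 28.6% lower. Pde4b had 150, 169 and 182 CPM, against 4.09, 3.63 and 3.67 CPM unstimulated (log2 5.46 ± 0.10, edgeR adjusted p = 7e-23), Pde3b 175, 179 and 184 CPM, against 23.4, 24.9 and 28.2 CPM unstimulated (log2 2.81 ± 0.07), and Pde10a and Pde4d rose by log2 5.32 ± 0.29 and 3.62. The calmodulin-dependent enzymes went the other way, with Pde1c at 0.379 ± 0.095 against 5.2 ± 0.413 CPM unstimulated (log2 -3.76 ± 0.37) and Pde1b at 61 ± 3.57 against 115 ± 4.85 CPM unstimulated (log2 -0.92 ± 0.07).

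Prostaglandin synthesis and breakdown had more genes lower than higher, with 3 of 18 tested genes (16.7%) higher and 8 (44.4%) lower, beside 30.1% and 28.6% of all genes. The 2 cyclooxygenase genes rose. Ptgs2 (ENSMUSG00000032487, chr1:150100031-150108227) had 13.8, 11.4 and 22 CPM, against 0.596, 0.372 and 1.25 CPM unstimulated (log2 4.31 ± 0.41, edgeR adjusted p = 1.65e-06), and Ptgs1 had 24.8, 17.2 and 18.5 CPM, against 3.49, 2.98 and 4.25 CPM unstimulated (log2 2.48 ± 0.18, edgeR adjusted p = 1.47e-09). The spread of Ptgs2 was wide but its groups did not overlap. Hpgds, the prostaglandin D synthase of blood cells, fell to 60.1 ± 4.34 CPM against 209 ± 2.65 CPM unstimulated (log2 -1.80 ± 0.05), and Hpgd, which inactivates PGE2, to 2.87 ± 1.42 against 11.5 ± 1.55 CPM unstimulated (log2 -1.96 ± 0.33).

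**Figure D2:**
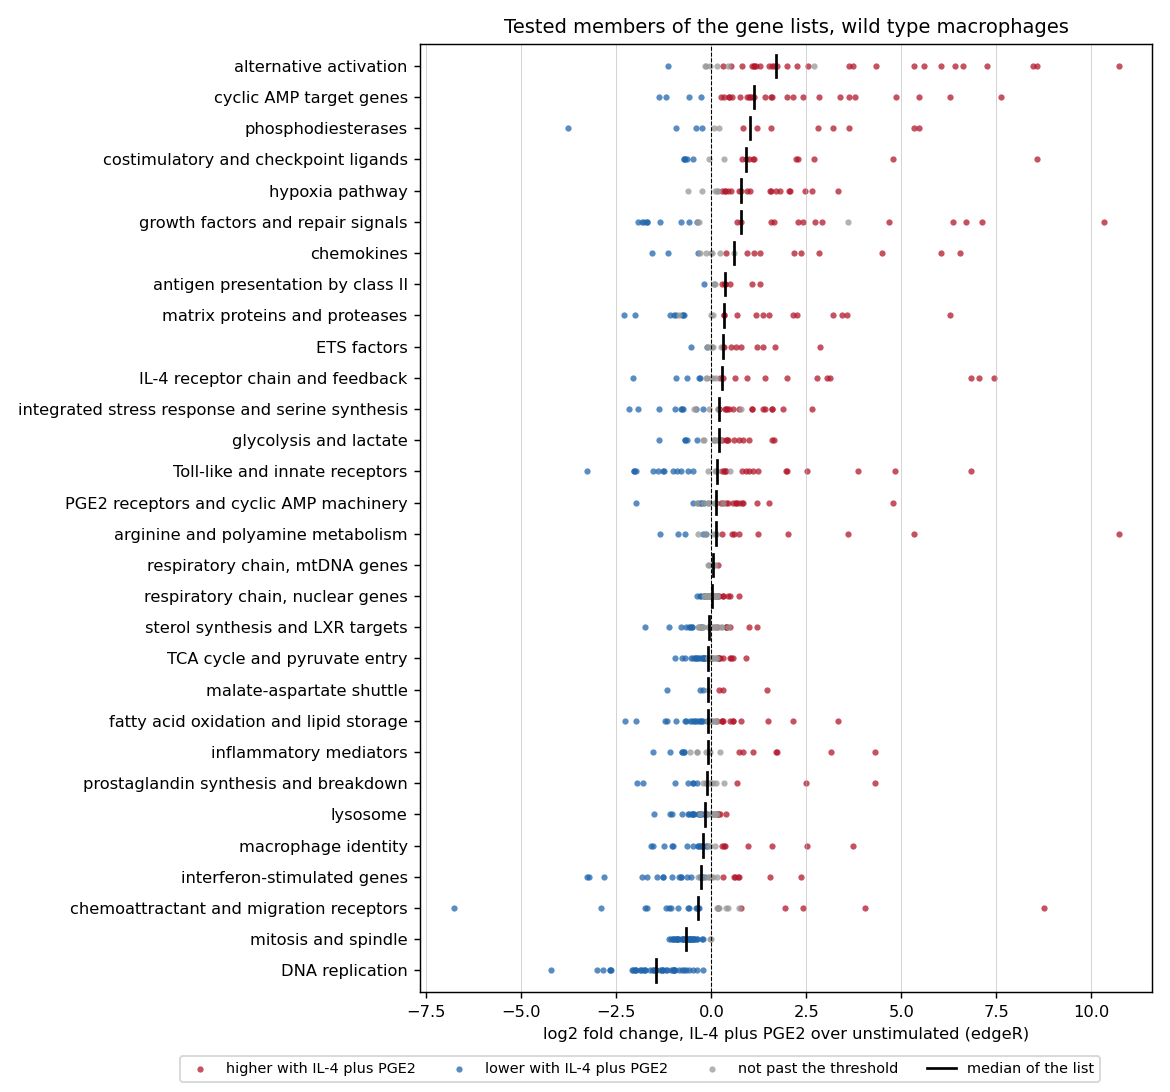
Log2 fold change of IL-4 plus PGE2 over unstimulated for every tested member of 30 gene lists, 1 point per gene, coloured by whether the gene was called higher, called lower or did not pass the test, with a black bar at each list's median. Medians run from 1.69 for alternative activation to -1.45 for DNA replication, and fitted values of genes with no count in unstimulated cells, such as Pgf, depend on the prior count of the fit.

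Of 25 tested secreted growth factor genes, 13 (52.0%) were higher, beside 30.1% of all genes, and 9 were lower, beside 28.6% of all genes. Their median log2 change was 0.78, or 0.67 with genes at 0 counts set to their bound. Tgfb3 had 69.2, 69.4 and 65 CPM with IL-4 plus PGE2, against 0.426, 0.838 and 0.66 CPM unstimulated (log2 6.71 ± 0.16, edgeR adjusted p = 8.72e-21), while Tgfb1 rose by log2 0.67 ± 0.05. Hbegf, an EGF receptor ligand, had 118, 108 and 99.1 CPM, against 4, 5.31 and 3.59 CPM unstimulated (log2 4.67 ± 0.11, edgeR adjusted p = 1.51e-19). Nrg1 (12.9 ± 1.44 against 0.0733 ± 0.127 CPM unstimulated), Fgf2 (5.37 ± 0.42 against 0.0528 ± 0.0461 CPM unstimulated) and Vegfa (287 ± 59.2 against 97.4 ± 9.89 CPM unstimulated, log2 1.56 ± 0.19) rose too. Those that fell included Gas6, the ligand of the receptors Axl and Mertk (85.4 ± 3.38 against 279 ± 7.3 CPM unstimulated, log2 -1.70 ± 0.05), Pdgfb (51.6 ± 4.09 against 184 ± 5.17 CPM unstimulated, log2 -1.83 ± 0.09), Hgf (11 ± 0.453 against 27.8 ± 2.92 CPM unstimulated, log2 -1.35 ± 0.11) and Igf1 (495 ± 10.4 against 745 ± 13.2 CPM unstimulated, log2 -0.59 ± 0.05).

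Of 23 tested matrix genes, 12 (52.2%) were higher and 8 (34.8%) lower, beside 30.1% and 28.6% of all genes. Mmp19, a secreted metalloproteinase, had 421, 457 and 487 CPM, against 98.2, 105 and 103 CPM unstimulated (log2 2.16 ± 0.06, edgeR adjusted p = 6.51e-19). Fn1, fibronectin, rose to 115 ± 6.09 CPM against 23.9 ± 1.2 CPM unstimulated (log2 2.26 ± 0.07), and Vcan and Timp1 rose by log2 3.56 ± 0.18 and 3.45. Plau, the urokinase that activates plasminogen, fell to 692 ± 68.8 against 1180 ± 86.6 CPM unstimulated (log2 -0.77 ± 0.07), and its receptor gene Plaur was at 146 ± 6.64 against 115 ± 3.76 CPM unstimulated (log2 0.34 ± 0.06). Mmp12, macrophage elastase, fell to 1820 ± 163 against 3040 ± 152 CPM unstimulated (log2 -0.75 ± 0.07).

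Chemokine genes were higher in 10 (52.6%) and lower in 3 (15.8%) of 19 tested, beside 30.1% and 28.6% of all genes (median log2 0.59). Ccl24, a ligand of the eosinophil receptor CCR3, had 34.8, 28.5 and 32 CPM, against 0.596, 0.558 and 0.293 CPM unstimulated (log2 6.05 ± 0.19, edgeR adjusted p = 9.89e-19). The monocyte attractants Ccl7 and Ccl2 rose to 253 ± 38.7 against 11.2 ± 1.77 CPM unstimulated (log2 4.49 ± 0.21) and 240 ± 37.3 against 33.3 ± 5.99 CPM unstimulated (log2 2.84 ± 0.18), while Ccl3 fell to 9.69 ± 1.88 against 21.4 ± 2.3 CPM unstimulated (log2 -1.13 ± 0.16) and Cxcl10 to 0.802 against 2.35 CPM unstimulated (log2 -1.56 ± 0.31). On the receptor side the balance was lower, with 6 of 26 tested chemoattractant and migration receptors (23.1%) higher and 14 (53.8%) lower (median log2 -0.34). Beside Cx3cr1, the receptor of platelet activating factor, Ptafr, had 26.8, 26.5 and 29.1 CPM, against 195, 206 and 207 CPM unstimulated (log2 -2.89 ± 0.07, edgeR adjusted p = 7.09e-19), and Cxcr4 and Ccr2 fell by 1.74 and 1.20 on the log2 scale. Ltb4r1, the leukotriene B4 receptor, had 20.9, 18 and 14.7 CPM, against 1.19, 1.02 and 1.03 CPM unstimulated (log2 4.04 ± 0.19), and Ccr1 rose to 402 ± 38.2 against 104 ± 4.17 CPM unstimulated (log2 1.95 ± 0.09).

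Of 20 tested inflammatory mediator genes, 7 (35.0%) were higher and 6 (30.0%) lower, shares near the 30.1% and 28.6% of all genes. Tnf fell to 14.5 ± 0.285 against 30.5 ± 1.01 CPM unstimulated (log2 -1.08 ± 0.11). Il1b had 4.06, 3.26 and 5.54 CPM, against 0.426, 0.652 and 0.367 CPM unstimulated (log2 3.14 ± 0.31, edgeR adjusted p = 5.07e-09), and Il10, an anti-inflammatory cytokine, had 15, 12.2 and 13.6 CPM, against 4.51, 3.16 and 4.62 CPM unstimulated (log2 1.71 ± 0.16). Neither gene overlapped between groups, and both levels stayed low. Il6, Il12a, Il12b, Il23a and Ifnb1 had too few counts to be tested.

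Of 33 tested Toll-like and other innate receptor genes, 15 (45.5%) were higher and 13 (39.4%) lower, beside 30.1% and 28.6% of all genes, and the median log2 change was 0.15. Tlr5, the flagellin receptor, had 68.1, 69.1 and 74.9 CPM with IL-4 plus PGE2, against 0.511, 0.745 and 0.587 CPM unstimulated (log2 6.83 ± 0.13, edgeR adjusted p = 2.38e-22). The nucleic acid sensors Tlr13 and Tlr7 fell: Tlr13 had 151, 151 and 146 CPM, against 587, 579 and 599 CPM unstimulated (log2 -1.98 ± 0.06, edgeR adjusted p = 1.77e-19), and Tlr7 averaged 29 ± 3.01 against 120 ± 2.61 CPM unstimulated (log2 -2.04 ± 0.08). Tlr8 and Tlr9, also sensors of nucleic acid, rose by log2 1.10 ± 0.05 and 1.98. Cd14, the co-receptor for lipopolysaccharide, rose to 1280 ± 229 against 221 ± 11.9 CPM unstimulated (log2 2.53 ± 0.15), and Fcgr2b, the inhibitory receptor for IgG, had 1400, 1460 and 1340 CPM, against 52, 51.6 and 45.1 CPM unstimulated (log2 4.82 ± 0.06, edgeR adjusted p = 8.9e-26). Fcgr1, the high-affinity activating receptor, fell to 70.8 ± 2.49 CPM against 167 ± 8.02 CPM unstimulated (log2 -1.24 ± 0.05), and the inhibitory lectin Clec12a to 102 ± 6.64 CPM against 416 ± 6.94 CPM unstimulated (log2 -2.03 ± 0.06).

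Among ligands for T cells, genes of both the stimulatory and the inhibitory side rose. Of 17 tested genes, 10 (58.8%) were higher, 8 of them by 2-fold or more, and 5 (29.4%) were lower, none by 2-fold. Of all genes, 30.1% were higher, 7.91% by 2-fold or more, and 28.6% lower. Pdcd1lg2 (PD-L2), a ligand of the checkpoint receptor PD-1, had 59.4, 59.4 and 49.9 CPM, against 0.17, 0.186 and 0.0733 CPM unstimulated (log2 8.57 ± 0.20, edgeR adjusted p = 7.41e-21), and its relative Cd274 (PD-L1) rose to 260 ± 29.9 against 55.7 ± 7.45 CPM unstimulated (log2 2.23 ± 0.15). The CD28 ligand genes Cd86 and Cd80 rose as well, Cd86 with 141, 130 and 116 CPM, against 4.09, 4.56 and 5.28 CPM unstimulated (log2 4.78 ± 0.10, edgeR adjusted p = 7.24e-22), and Cd80 with 84.6, 87.9 and 87.4 CPM, against 12.5, 14.8 and 12.5 CPM unstimulated (log2 2.71 ± 0.10). The groups were apart in all of these. Cd40 was at 12.6 ± 1.34 against 10 ± 0.764 CPM unstimulated and did not pass the test (edgeR adjusted p = 0.0786), though some alternatives called it higher. Class II antigen presentation genes were higher in 7 (63.6%) and lower in 1 (9.09%) of 11 tested, with 2 higher by 2-fold or more, and Cd74, the invariant chain, was at 269 ± 28.6 against 211 ± 4.47 CPM unstimulated (log2 0.35 ± 0.09).

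Interferon-stimulated genes were mostly lower: 20 of 34 tested (58.8%) fell and 7 (20.6%) rose, with a median log2 change of -0.27, where 28.6% and 30.1% of all genes did. Their summed level was nonetheless alike, at 1410 to 1490 CPM with IL-4 plus PGE2 and 1410 to 1480 CPM unstimulated. The antiviral effectors Ifit3, Ifit2 and Rsad2 fell to 1.94 ± 1.06 against 17.6 ± 1.84 CPM unstimulated (log2 -3.22 ± 0.25), 2.78 ± 1.66 against 19 ± 2.28 CPM unstimulated (log2 -2.83 ± 0.22) and 6.97 ± 3.13 against 21.9 ± 2.55 CPM unstimulated (log2 -1.70 ± 0.22). Ifit3 and Ifit3b are near copies whose reads could have been split. The exceptions included Irf7, a transcription factor of the interferon response, with 190, 180 and 161 CPM, against 36.2, 34.1 and 34 CPM unstimulated (log2 2.35 ± 0.07, edgeR adjusted p = 2.79e-19), and Zbp1, a sensor of Z-form nucleic acid, with 37, 35.2 and 38.6 CPM, against 12.5, 12.7 and 12.6 CPM unstimulated (log2 1.55 ± 0.08). Ddx58, the RNA sensor RIG-I, rose by log2 0.74 ± 0.06. In control shRNA cells Irf7 was also higher (log2 1.37, edgeR adjusted p = 0.00196). Zbp1 (log2 0.19) and Ddx58 (log2 -0.47) did not pass edgeR's test there (adjusted p = 0.713 and 0.349). The interferon-stimulated response element has the letters GAAANNGAAA on either strand. Of the genes of this list with a promoter window, 16 of 25 (64.0%) held it. So did 26 of 761 genes at least 2-fold higher (3.42%), 35 of 567 at least 2-fold lower (6.17%) and 375 of 9489 tested genes (3.95%). Of all windows, 3.44% held it, and it overlapped the E2F motif in 5 windows.

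DNA replication genes fell without exception. All 42 tested members were lower, 31 of them by 2-fold or more, where 28.6% of all genes were lower, and the median log2 change was -1.45. In bulk libraries, fewer cells of a kind and less RNA per cell cannot be told apart. Pcna, the sliding clamp of DNA polymerases, had 112, 118 and 125 CPM with IL-4 plus PGE2, against 399, 408 and 419 CPM unstimulated (log2 -1.80 ± 0.05, edgeR adjusted p = 6.83e-20). Mcm6, a subunit of the replicative helicase, had 38, 36 and 34.4 CPM, against 250, 250 and 277 CPM unstimulated (log2 -2.84 ± 0.07, edgeR adjusted p = 2.13e-19). The other helicase subunits Mcm2, Mcm3, Mcm4, Mcm5 and Mcm7 fell by 2.67, 2.02, 1.74, 1.85 and 1.87 on the log2 scale, and Pole, the leading-strand polymerase, by 2.01. Summed over the list, levels were 939 to 944 CPM with IL-4 plus PGE2 and 2740 to 2990 CPM unstimulated. The smallest falls were in the clamp loader genes Rfc5 (log2 -0.23 ± 0.07) and Rfc3 (log2 -0.37 ± 0.11).

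The E2F motif, letters TTTCCCGC or TTTGGCGC on either strand, was present in 13 of the 36 replication genes that had a promoter window (36.1%). Its share was 13 of 761 (1.71%) among genes at least 2-fold higher, 44 of 567 (7.76%) among those at least 2-fold lower, 336 of 9489 (3.54%) among all tested genes and 1.56% of all windows. The windows of the replication genes with the largest falls among those with a match, Mcm6 and the helicase loader Cdc6, are shown with the motif in capitals. They were chosen after their values were seen.
Mcm6, chr1:128359656-128359955, minus strand: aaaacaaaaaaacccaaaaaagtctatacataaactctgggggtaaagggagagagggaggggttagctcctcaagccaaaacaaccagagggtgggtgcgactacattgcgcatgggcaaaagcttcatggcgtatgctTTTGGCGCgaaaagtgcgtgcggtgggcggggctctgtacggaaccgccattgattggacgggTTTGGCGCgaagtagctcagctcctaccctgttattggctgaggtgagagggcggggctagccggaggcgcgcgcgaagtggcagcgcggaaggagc
Cdc6, chr11:98907901-98908200, plus strand: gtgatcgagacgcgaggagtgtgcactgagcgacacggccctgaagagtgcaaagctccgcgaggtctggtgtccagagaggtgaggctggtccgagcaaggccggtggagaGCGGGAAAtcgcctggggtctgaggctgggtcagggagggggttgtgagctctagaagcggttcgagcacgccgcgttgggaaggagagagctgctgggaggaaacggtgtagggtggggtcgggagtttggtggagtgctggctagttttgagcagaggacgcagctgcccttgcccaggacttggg
Mcm6 held 2 matches, the first beginning 110 bases before the start, and Cdc6 held 1, which began 138 bases before it. Cdc6 was at 3.63 ± 0.5 against 22.6 ± 2.6 CPM unstimulated (log2 -2.64 ± 0.13).

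Mitosis genes fell as well but by less. Of 36 tested, 34 (94.4%) were lower, beside 28.6% of all genes, with 3 of them lower by 2-fold or more, none was higher, and the median log2 change was -0.66. Anln, the cytokinesis protein anillin, had 28, 24.8 and 25 CPM, against 56.2, 51.2 and 54 CPM unstimulated (log2 -1.05 ± 0.06, edgeR adjusted p = 7.71e-13), and Ccna2, cyclin A2, had 38, 38.3 and 39.4 CPM, against 64.5, 73.1 and 76.6 CPM unstimulated (log2 -0.89 ± 0.07). Mki67, the proliferation antigen Ki-67, was at 185 ± 17.3 against 280 ± 7.8 CPM unstimulated (log2 -0.59 ± 0.06). Aurka (25.2 ± 0.903 against 25.8 ± 0.837 CPM unstimulated) and Cenpa (53 ± 3.17 against 53.6 ± 2.39 CPM unstimulated) did not pass the test.

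Nuclear genes of the respiratory chain were close to level. Of 74 tested subunit genes, 8 were higher and 7 lower, none by 2-fold, and the median log2 change was 0.01, while 30.1% and 28.6% of all genes were higher and lower. The largest was Ndufb9, a complex I subunit, with 90.4, 88.1 and 77.9 CPM, against 49.7, 49.9 and 56.2 CPM unstimulated (log2 0.72 ± 0.07, edgeR adjusted p = 1.69e-08). For this list the median IL-4 change over unstimulated was 0.20 and the median change of PGE2 on top of IL-4 was -0.21. These 2 values share the IL-4 libraries, and no test was made of them. Of 8 tested genes of the mitochondrial genome, mt-Nd5 was called higher at log2 0.17 ± 0.07 (SE, edgeR adjusted p = 0.0406), a call that was lost under RLE normalization (adjusted p = 0.0502), under upper quartile normalization (adjusted p = 0.155) and when any 1 of 5 libraries was left out, and the other 7 did not pass the test. mt-Co1, for instance, was at 7730 ± 313 CPM against 7540 ± 106 CPM unstimulated. In control shRNA cells, 4 of 7 tested genes of the mitochondrial genome were higher and 0 lower (median log2 0.20). Of all genes there, 30.3% were higher and 31.2% lower. Both mt-Nd5 (log2 0.40, edgeR adjusted p = 1.34e-05) and mt-Co1 (log2 0.28, edgeR adjusted p = 0.000269) were called higher there. The difference between the experiments was not tested.

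Enzymes of the TCA cycle and pyruvate entry were lower in 17 (44.7%) and higher in 9 (23.7%) of 38 tested genes, all by less than 2-fold, beside 28.6% and 30.1% of all genes. All tested isocitrate dehydrogenase genes fell, led by Idh2 at 47.2 ± 2.21 against 80.8 ± 3.08 CPM unstimulated (log2 -0.77 ± 0.06). Among regulators of pyruvate dehydrogenase, the inhibitory kinase gene Pdk3 rose to 29.8 ± 2.18 against 15.7 ± 0.906 CPM unstimulated (log2 0.92 ± 0.08). The activating phosphatase gene Pdp1 fell to 19.6 ± 1.97 against 37.7 ± 0.431 CPM unstimulated (log2 -0.95 ± 0.08). In control shRNA cells Pdp1 was also lower (log2 -0.59, edgeR adjusted p = 0.000176), while Pdk3 did not pass the test (log2 0.30, edgeR adjusted p = 0.0769). The malate-aspartate shuttle, which carries reducing equivalents into mitochondria, had 3 genes higher and 3 lower of 7. Got1 (ENSMUSG00000025190, chr19:43499752-43524605), the cytosolic aspartate aminotransferase, had 114, 118 and 126 CPM, against 44.5, 45.1 and 39.7 CPM unstimulated (log2 1.47 ± 0.06, edgeR adjusted p = 5.48e-16). Its mitochondrial counterpart Got2 fell to 72 ± 2.86 against 88.9 ± 1.8 CPM unstimulated (log2 -0.30 ± 0.05), and the aspartate-glutamate carrier Slc25a13 to 27.4 ± 1.72 against 61.6 ± 2.42 CPM unstimulated (log2 -1.16 ± 0.07).

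Genes of the hypoxia pathway rose, with 18 of 23 tested (78.3%) higher and none lower, beside 30.1% and 28.6% of all genes (median log2 0.78). Hif1a, the oxygen-regulated transcription factor, had 236, 234 and 226 CPM, against 81.2, 78.6 and 77.5 CPM unstimulated (log2 1.55 ± 0.05, edgeR adjusted p = 2.24e-18). Hilpda, a lipid droplet protein, rose to 137 ± 35.5 against 13.8 ± 2.78 CPM unstimulated (log2 3.32 ± 0.30), the mTORC1 inhibitor gene Ddit4 to 34.7 against 5.49 CPM unstimulated (log2 2.66 ± 0.28) and the mitophagy receptor Bnip3 to 310 against 89.1 CPM unstimulated (log2 1.80 ± 0.23). The cultures were kept at atmospheric oxygen according to the labels. In glycolysis, 12 of 25 tested genes (48.0%) were higher and 5 (20.0%) lower. Slc16a3, the lactate exporter, rose to 493 ± 29.9 against 156 ± 25.8 CPM unstimulated (log2 1.66 ± 0.24), Pfkfb4, which makes the activator of phosphofructokinase, to 203 ± 20.1 against 66.8 ± 1.88 CPM unstimulated (log2 1.60 ± 0.06) and the glucose transporter Slc2a1 to 288 against 144 CPM unstimulated, while Slc2a3 fell to 3.59 ± 0.493 against 9.3 ± 1.37 CPM unstimulated (log2 -1.37 ± 0.17).

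In lipid handling, 11 of 36 tested genes of fatty acid oxidation and storage (30.6%) were higher, near the 30.1% of all genes, and 17 (47.2%) lower, beside 28.6% of all genes. Dgat1, which makes triglyceride, had 60.7, 70.4 and 75.9 CPM, against 16, 14.3 and 16 CPM unstimulated (log2 2.15 ± 0.09, edgeR adjusted p = 2.76e-16). Lipoprotein lipase, Lpl, fell to 2790 ± 145 against 6470 ± 498 CPM unstimulated (log2 -1.21 ± 0.09), the lipid droplet coat gene Plin2 to 608 against 1350 CPM unstimulated (log2 -1.16 ± 0.09) and the lipid chaperone Fabp4 to 23.3 against 91.5 CPM unstimulated (log2 -1.97 ± 0.14). Sterol genes had 7 (20.0%) higher and 10 lower of 35, and their lower share of 28.6% was that of all genes. Among those lower was Nr1h3, the oxysterol receptor LXR-alpha, at 16.6 ± 0.984 against 56.2 ± 3.28 CPM unstimulated (log2 -1.75 ± 0.11). Lysosomal genes leaned lower, with 5 of 37 (13.5%) higher and 21 (56.8%) lower, beside 30.1% and 28.6% of all genes. Lipa, the acid lipase, had 655, 691 and 672 CPM, against 1960, 1930 and 1910 CPM unstimulated (log2 -1.52 ± 0.04, edgeR adjusted p = 3.84e-19), and Tfeb, a regulator of lysosome genes, fell to 29 ± 1.58 against 59.2 ± 1.89 CPM unstimulated (log2 -1.03 ± 0.07). The integrated stress response list had 16 of 31 (51.6%) higher and 9 (29.0%) lower, the lower share again near that of all genes: Slc7a11, the cystine importer, rose by log2 1.41 ± 0.12, and the serine-to-glycine enzymes Shmt1 and Shmt2 fell by 2.16 and 0.95 on the log2 scale.

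Of 25 tested macrophage identity genes, 7 (28.0%) were higher and 15 (60.0%) lower, beside 30.1% and 28.6% of all genes, with a median log2 change of -0.22. The defining markers were detected in both groups: Adgre1 (F4/80) was at 2050 ± 70.9 CPM with IL-4 plus PGE2 against 1580 ± 20.1 CPM unstimulated, Csf1r at 2720 ± 71.3 against 2150 ± 63 CPM unstimulated and Lyz2 at 8990 ± 861 against 11400 ± 241 CPM unstimulated. Msr1, a scavenger receptor, fell to 223 ± 6.87 CPM against 646 ± 9.84 CPM unstimulated (log2 -1.53 ± 0.05). The summed level of the list was 38800 to 40400 CPM with IL-4 plus PGE2 and 34100 to 34700 CPM unstimulated. Without Mrc1, which also belongs to the alternative activation list, it was 29300 to 30600 CPM with IL-4 plus PGE2 and 33300 to 33900 CPM unstimulated, an order opposite to that of the whole list; leaving it out was chosen after seeing the data. Maf, a macrophage transcription factor, rose by log2 0.96 ± 0.06, while Cebpa, a factor of myeloid differentiation, fell to 71.9 ± 9.09 against 219 ± 5.71 CPM unstimulated (log2 -1.60 ± 0.09). Among ETS factors, 9 of 17 (52.9%) were higher and 2 (11.8%) lower. Ets2 had 374, 362 and 349 CPM, against 49.9, 47.8 and 52.4 CPM unstimulated (log2 2.85 ± 0.06, edgeR adjusted p = 7.14e-22), and Etv1 (ENSMUSG00000004151, chr12:38779380-38870484) had 30.6, 28.9 and 30.1 CPM, against 11.8, 12 and 10.9 CPM unstimulated (log2 1.37 ± 0.09, edgeR adjusted p = 3.66e-12). Spi1, the ETS factor PU.1, was slightly lower at 278 ± 6.21 against 302 ± 8.46 CPM unstimulated (log2 -0.12 ± 0.05).

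Several markers of other cells changed by 2-fold or more, and their part in the results was not tested. Of 14 neutrophil markers, 11 were tested, 3 (27.3%) were higher and 3 lower, near the shares of all genes, and their sum was 366 to 474 CPM with IL-4 plus PGE2 against 378 to 398 CPM unstimulated. The higher ones were the receptor genes Cxcr2 (9.55 ± 1.06 against 1.8 ± 0.231 CPM unstimulated, log2 2.40 ± 0.18) and Csf3r (98.8 ± 12.1 against 47.6 ± 1.38 CPM unstimulated, log2 1.06 ± 0.10) and the granule enzyme gene Mpo (log2 1.03 ± 0.15), and the lower ones were the granule protein genes Ngp, Camp and Mmp8 (log2 -0.37, -0.43 and -0.94). Dendritic cell markers summed to 104 to 116 CPM against 107 to 122 CPM unstimulated, with 5 of 10 tested. Flt3 and Zbtb46 were higher (log2 2.80 ± 0.48 and 2.50 ± 0.39), at 1.03 ± 0.0506 and 1.76 ± 0.208 CPM against 0.137 ± 0.0396 and 0.307 ± 0.0596 CPM unstimulated, and Kit was lower in a call that most alternatives did not give. Lymphocyte markers summed to 15.5 to 15.9 CPM against 16.2 to 17.5 CPM unstimulated, with 4 of 14 tested and 1 lower, the natural killer receptor gene Klrb1c at 0.23 ± 0.0999 CPM against 1.45 ± 0.288 CPM unstimulated (log2 -2.62 ± 0.42). Erythroid and megakaryocyte markers summed to 99.2 to 112 CPM against 95.1 to 109 CPM unstimulated, with 2 of 11 tested, and Alas2 at 0. The 1 called higher was Itga2b (log2 0.81 ± 0.26), whose groups overlapped and whose call some alternatives did not give. Mast cell and basophil markers summed to 6.84 to 7.49 CPM against 2.46 to 3.14 CPM unstimulated, with 2 of 10 tested, where Hdc, histidine decarboxylase, was the one that rose (log2 2.76 ± 0.23) and Fcer1a and Tpsab1 were at 0. The stromal list summed to 158 to 212 CPM against 4.25 to 5.59 CPM unstimulated. Pecam1, an adhesion molecule, held most of that sum, with 209, 201 and 154 CPM, against 2.81, 2.7 and 1.98 CPM unstimulated (log2 6.25 ± 0.20, edgeR adjusted p = 2.54e-10). Pecam1 is also made by leukocytes, the endothelial cadherin Cdh5 was at 1.58 ± 0.297 against 0.967 ± 0.323 CPM unstimulated and did not pass the test, and Lum was at 0.

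The net value of a gene hides how it was reached, so the level with IL-4 alone is set beside it for genes chosen by their steps. The 2 steps share the IL-4 libraries. The genes of each pattern were chosen because both steps passed edgeR's test, so their values are given as a description only. Il1r1, the receptor of IL-1, was at 58.6 CPM with IL-4 plus PGE2, 6.48 CPM with IL-4 alone and 0.491 CPM unstimulated. Itgb8, the integrin subunit that activates latent TGF-beta, was at 22.3, 4.01 and 0.219 CPM in the same 3 groups. In the falling direction, Slc16a10 was at 14.1 CPM with IL-4 plus PGE2, 46.9 CPM with IL-4 alone and 160 CPM unstimulated, and Cspg4, a proteoglycan, at 3.04, 9.67 and 28.6 CPM. These genes went the same way at each step.

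Other genes were chosen because both steps were called in opposite directions and the net change was not called. A level with both agents near the unstimulated one thus followed from the choice. Ch25h, cholesterol 25-hydroxylase, was at 3.59 CPM with IL-4 plus PGE2, 35.7 CPM with IL-4 alone and 2.68 CPM unstimulated, and its net log2 change of 0.44 ± 0.52 (SE) did not pass edgeR's test (adjusted p = 0.503). Cd40, the costimulatory receptor, was at 12.6, 53.1 and 10 CPM. Ppargc1b, a coactivator of mitochondrial genes, was at 3.03, 12.9 and 3.29 CPM. The opposite pattern was seen in Clec4d, a lectin receptor of fungal ligands, with 581 CPM with IL-4 plus PGE2, 146 CPM with IL-4 alone and 544 CPM unstimulated, and in Cgnl1, with 68.3, 18.3 and 63.9 CPM. Outside this choice, Thbs1 was lower with IL-4 alone than in either other group, at 4030, 13 and 51.7 CPM. Tlr5 was at 70.7, 0.356 and 0.614 CPM, and its difference between IL-4 alone and no stimulus did not pass edgeR's test (adjusted p = 0.186).

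**Figure D3:**
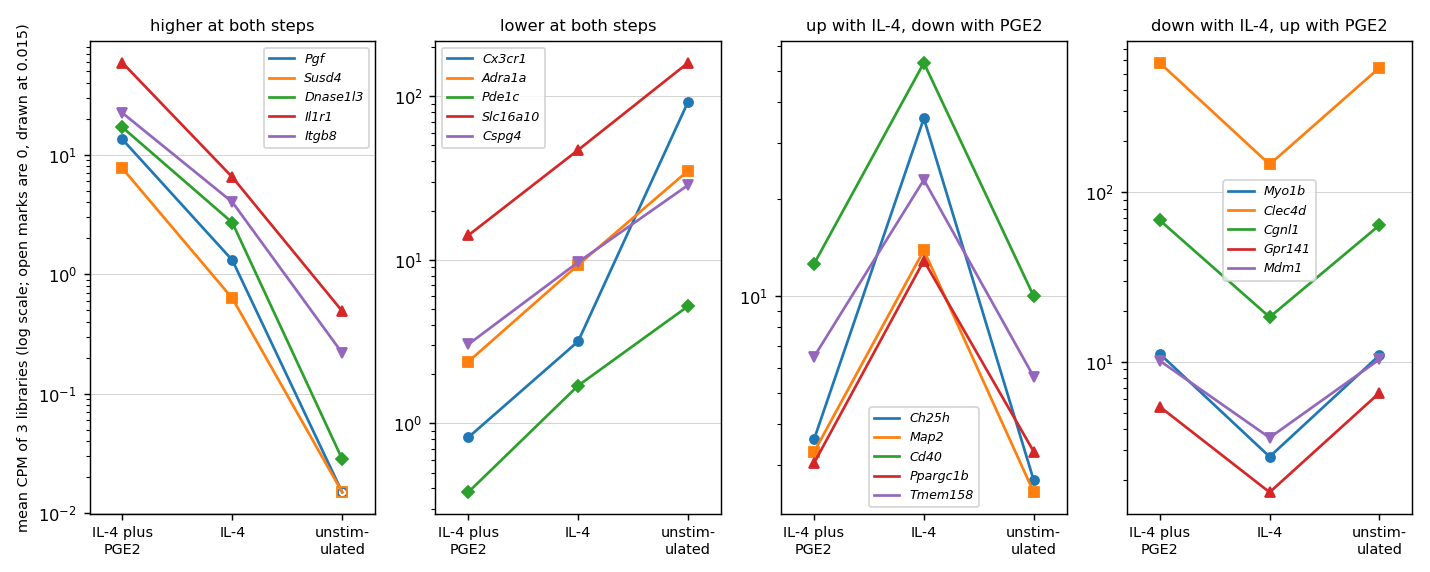
Mean CPM of 3 libraries (log axis, with open marks for levels of 0) with IL-4 plus PGE2, IL-4 alone and no stimulus, in 4 panels of 5 genes chosen by the direction of their steps. In the first 2 panels the level moves the same way at both steps, as for Slc16a10 (14.1, 46.9 and 160 CPM). Genes of the last 2 panels were also chosen for a net change that was not called. Their level with both agents is therefore near the unstimulated one, as for Clec4d (581, 146 and 544 CPM).

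The same comparison could be made in the control shRNA cells, whose libraries are separate from the wild type ones. Totals there were 8990406 to 30473040 counts with IL-4 plus PGE2 and 9981301 to 20658411 counts unstimulated, and replicate 2 stood apart from the others in both groups. Of 12382 genes tested, 3756 (30.3%) were higher and 3860 (31.2%) lower, and 1138 (9.19%) and 1085 (8.76%) were so by 2-fold or more. Of the 1015 genes at least 2-fold higher in wild type cells, 903 were tested, 814 (90.1%) were called higher and 3 lower, where 30.5% of all genes tested in both experiments were higher. Of the 789 at least 2-fold lower in wild type cells, 713 were tested, 639 (89.6%) were called lower and 2 higher, beside 31.7% of all. Without replicate 2 in both groups, the counts were 820 of 916 (89.5%) and 628 of 722 (87.0%). All 12 genes with the largest rises in wild type cells were called higher, and all 11 tested of the 12 with the largest falls were called lower. Arg1, for instance, had a log2 change of 13.65, Crem 5.33, Got1 1.48, Etv1 1.42 and Cx3cr1 -6.07.

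The sizes and directions of some lists' values differed between the experiments, and these differences were not tested. Mitosis genes had a median log2 change of -1.88 in control shRNA cells (33 of 36 lower), against -0.66 in wild type cells, and DNA replication genes -1.02 (35 of 42 lower and 2 higher), against -1.45. Interferon-stimulated genes were lower in 14 and higher in 1 of 34 in control shRNA cells (median log2 -0.85). The chemoattractant receptors leaned the other way there, with 13 of 24 higher and 7 lower. So did the integrated stress response list, with 10 of 30 higher and 14 lower, and the sterol genes, with 14 of 35 higher and 7 lower. Class II genes had 2 of 11 higher and 0 lower there, and glycolysis genes 8 of 25 higher and 7 lower. Macrophage identity genes had 7 of 25 higher and 7 lower there. Of all genes tested there, 30.3% were higher and 31.2% lower. Levels were normalized separately in each experiment and are not set against each other.

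**Figure D4:**
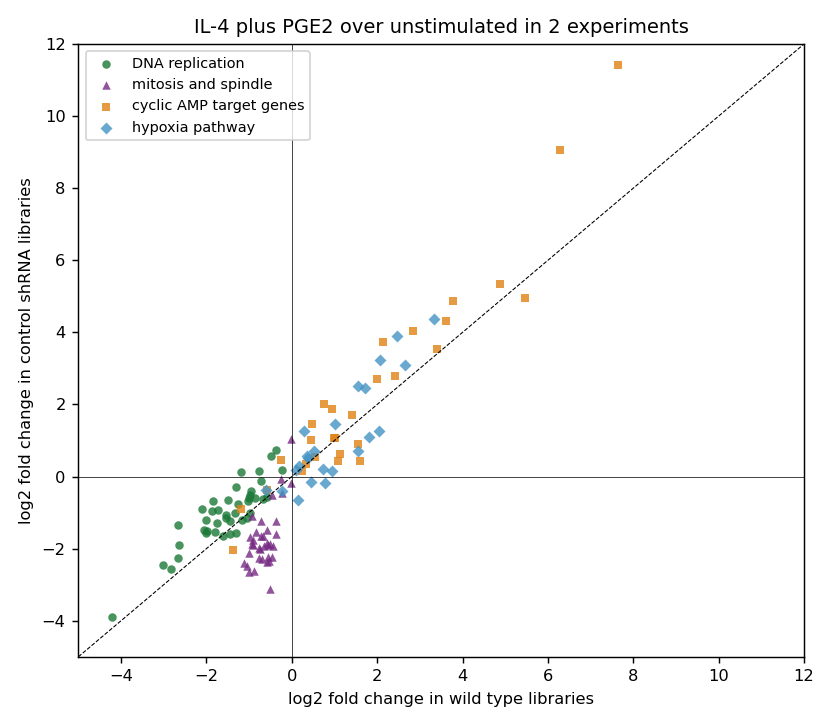
Log2 fold change of IL-4 plus PGE2 over unstimulated in control shRNA libraries (vertical axis) against wild type libraries (horizontal axis) for the members of 4 lists, 1 point per gene, with the line of equal change dashed. Most mitosis genes lie below the line, with medians of -1.88 in control shRNA and -0.66 in wild type libraries, and most DNA replication genes lie above it, with medians of -1.02 and -1.45 in the same libraries.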

How the data were processed

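RNA-seq of mouse bone marrow derived macrophages was used as deposited: 1 table of raw counts per gene for each library. Per the labels' protocols, libraries were made with a stranded mRNA kit. Per the submitters' processing notes, the authors used STAR and featureCounts with GRCm38; no version or strand setting of the counting is given in the sources used here. Overlapping and antisense genes cannot be told apart. Near-identical copies may share reads.

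Gene symbols came from GENCODE annotation of GRCm38, which matched 42548 of 43629 gene IDs (97.52%); unmatched IDs held 0.153% of the reads. Counts were fitted with edgeR 4.0.16 in R 4.3.3 over the 12 wild type libraries, and separately over the 18 shRNA libraries. The settings were TMM scaling, filterByExpr, the robust quasi-likelihood F test and Benjamini-Hochberg adjustment over all genes tested. The wild type fit also held libraries with IL-4 alone and with IL-4 plus valinomycin at 10 nM. The shRNA fit also held control shRNA libraries with IL-4 alone and the Etv1 shRNA libraries. CPM use TMM library sizes, except summed levels of lists, which use library totals, and a floor of 3 counts was 0.228 to 0.285 CPM per library with IL-4 plus PGE2 and 0.224 to 0.285 CPM unstimulated. Counts were also simulated from these libraries, with the same spread setting for every gene and 100 genes changed at each size. There the wild type fit recovered 100% of changes of log2 1 and 58% of changes of log2 0.5. These shares need not hold for the real counts. No 2 replicates agreed within sampling noise (lowest chi-square per degree of freedom 1.235).

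The members and lists were chosen with earlier results of these data known. Genes named are 8 fixed ones (Arg1, Retnla, Chil3, Etv1, Got1, Crem, Ptgs2, Thbs1), the 12 largest rises and falls with at least 5 CPM and no overlap, up to 4 members per list by adjusted p, and 5 genes for each pattern of steps. Other list members and Vdr were chosen after their values were seen. Same-numbered wild type libraries did not deviate together (r = -0.227, -0.024 and -0.276). Same-numbered control shRNA libraries had r = 0.415, 0.573 and 0.206, but replicates 1 and 3 of opposite groups had r = 0.46 and 0.338. Pairs of replicate 2 with another replicate had r from -0.518 to -0.341. Replicate 2 thus stood apart in both groups, and a pairing by number cannot be read from these values. Alternatives were RLE and upper quartile scaling, no filter, DESeq2 1.42.0, fewer libraries, a replicate block, a test against a 1.5-fold change and leaving out each replicate. A few list members are not reported here.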

Additional observations from a re-analysis of the deposited data

Results flagged for a closer look

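Hk1, hexokinase 1, and Mthfd1l, a mitochondrial enzyme of folate metabolism, had log2 changes of opposite sign in the 2 experiments. Hk1 averaged 190 ± 11.4 CPM with IL-4 plus PGE2 and 141 ± 1.35 CPM unstimulated (SD, n = 3 each) in wild type cells, with a log2 change of 0.43 there and -0.20 in control shRNA cells. Mthfd1l averaged 42.8 ± 2.31 CPM with IL-4 plus PGE2 and 25.8 ± 1.48 CPM unstimulated (SD, n = 3 each) in wild type cells, with a log2 change of 0.73 there and -0.28 in control shRNA cells, where the change did not pass edgeR's test (adjusted p = 0.0505). For both genes every wild type library with IL-4 plus PGE2 lay above every unstimulated one, and every control shRNA library with IL-4 plus PGE2 lay below. The difference between the experiments was not tested.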

How the results depend on the processing

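When genes were tested against a 1.5-fold change, 1205 were higher and 1074 lower in wild type cells, since this test leaves out small changes. Under the other alternatives the counts stayed within 1.5 times of 3858 higher and 3670 lower: 3399 and 4242 with upper quartile scaling, and 3425 and 3368 with DESeq2. Leaving out 1 replicate gave 3584 to 3670 higher and 3332 to 3493 lower, and 1010 to 1050 and 781 to 825 at 2-fold or more. In control shRNA cells the same gave 3409 to 3648, 3393 to 3721, 1126 to 1217 and 1041 to 1123. With a replicate block, 3897 were higher and 3703 lower in wild type cells, and 3938 and 4044 in control shRNA cells. Without replicate 2 in both control shRNA groups, an alternative chosen after seeing the data, 3595 were higher and 3483 lower.

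Of 2206 values of named genes under the alternatives, 2158 kept their call, 40 lost it, 8 gained one and 0 reversed. Of 936 list counts, 82 moved by more than 1.5 times, 40 of them in the test against a 1.5-fold change. Kit lost its call with DESeq2 (adjusted p = 0.115), and Itga2b without IL-4 plus PGE2 replicate 2 (adjusted p = 0.0747) or unstimulated replicate 1 (adjusted p = 0.0739). Cd40 was called higher with DESeq2 (adjusted p = 0.0407) and with the replicate block (adjusted p = 0.034). It was also called higher by edgeR with no filter (adjusted p = 0.00964) and with only the 6 libraries (adjusted p = 0.0165). The causes were not tested. Depth limits genes near the floor of 3 counts.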
